A study of Mus musculus with 9 samples.

Results

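Marker genes of lung cells other than macrophages were followed through the RNA sequencing of 9 sorted macrophage samples of the mouse lung. The list held 38 genes, chosen by symbol for the cells they mark, namely epithelium (8 genes), fibroblasts (10 genes), endothelium (4 genes), T and NK cells (6 genes), B cells (3 genes), neutrophils (3 genes) and dendritic cells (4 genes). Of these, 36 were found among the 24346 gene symbols of the data, and Ighm and Ly6g were not analysed here. In at least 1 sample, 35 of the 36 had a value above 0, and Elane was listed at 0 in all 9. The values were FPKM, a level scaled to transcript length and to the number of mapped fragments of the sample.

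Lewis lung carcinoma (LLC) cells, an established mouse lung tumor line that here carried the fluorescent protein tdTomato, were implanted in the left lung of female C57BL/6 mice, and control mice received vehicle. The lungs were not perfused before digestion, and the 2 sets of mice were bred separately. From the autofluorescent CD45+ cells, alveolar macrophages (AMs) were sorted as Siglec-F+ cells and tumor-associated macrophages as Siglec-F- cells. The 3 groups of 3 samples, all from postnatal week 10, were Ctrl-AM (AMs from control mice), Tumor-AM (AMs from mice with tumors) and Tumor-macrophage (the tumor-associated macrophages from mice with tumors). The labels do not say whether replicates were separate animals, while a figure legend of the study gives 3 mice per population. The p-values thus measure the spread between these samples. Estimated depth was 9900000 to 12500000 reads per sample. Its absolute scale, and that of all estimated reads, depends on transcript lengths that the sources used here do not give, while the ratios between samples do not.

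The lung wall is built of epithelium, fibroblasts and capillary endothelium, which lack CD45, while T cells, NK cells, B cells, neutrophils and dendritic cells are leukocytes that carry it. Alveolar type II cells of the epithelium secrete surfactant, which AMs take up and break down, and fibroblasts secrete the collagens and proteoglycans of the matrix. Bulk values do not tell a few foreign cells from low expression by the macrophages, and fewer cells of a type and less RNA per cell cannot be told apart either.

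Genes of macrophages were checked beside these markers. Cd68, a lysosomal protein of macrophages, ran from 1185 to 1859 FPKM and Ptprc, which encodes CD45, from 125 to 162 FPKM over the 9 samples. Siglecf was at 164 to 209 FPKM in the 6 AM samples and at 0.46 to 0.84 FPKM in Tumor-macrophage. C1qa, a complement gene of many tissue macrophages, was at 1.21 to 13.8 FPKM in the AM samples and at 2075 to 2232 FPKM in Tumor-macrophage. All 36 marker genes together summed to a mean of 148 FPKM over Ctrl-AM, 128 over Tumor-AM and 136 over Tumor-macrophage, and the median of their group means was 0.616, 0.706 and 1.05 FPKM.

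**Figure D1:**
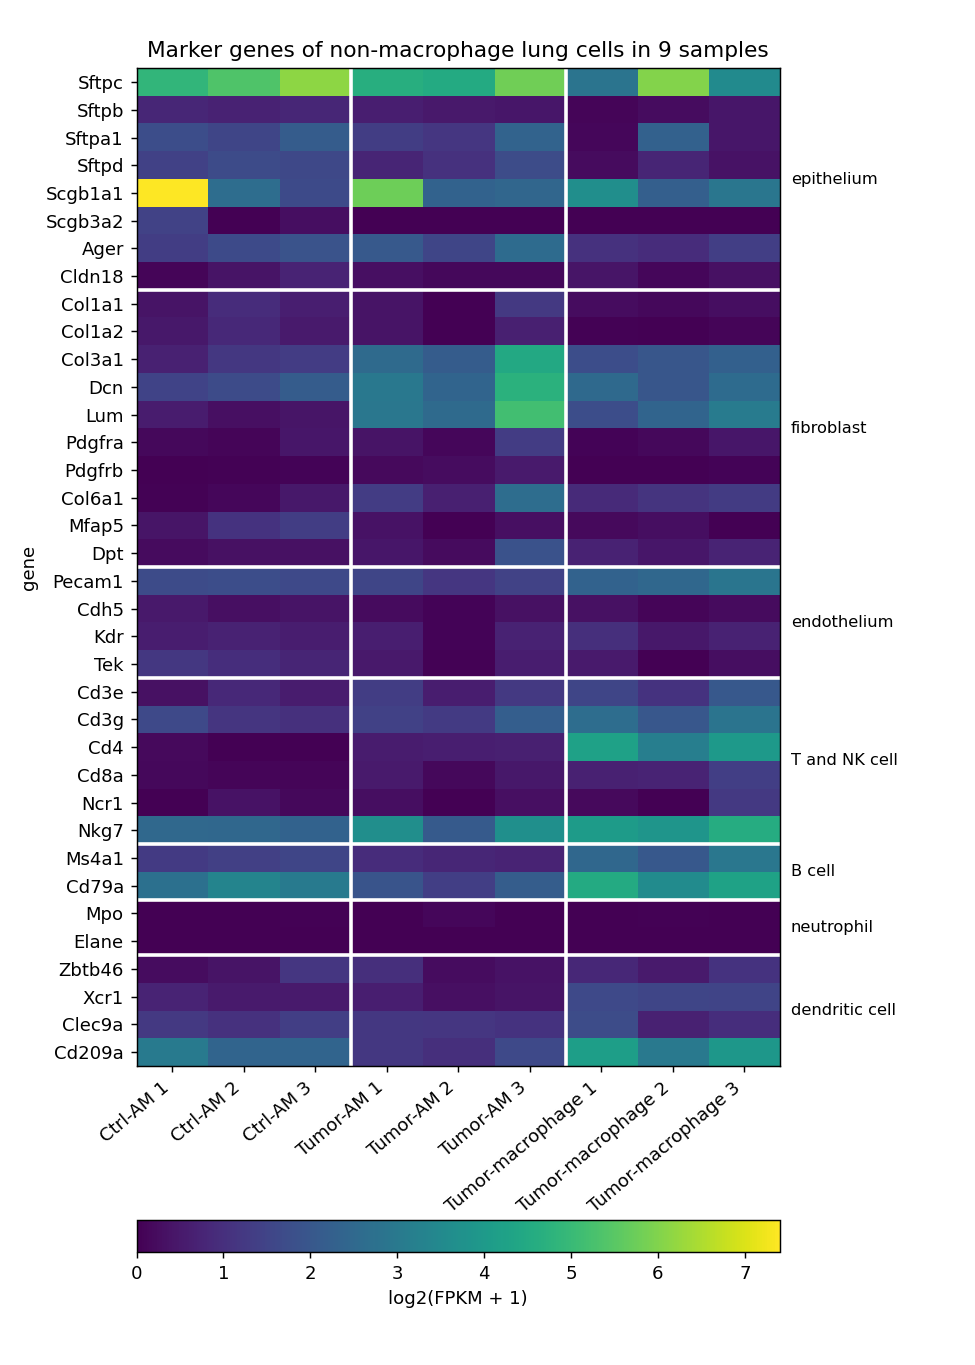
The color gives log2(FPKM + 1) of each of the 36 marker genes (vertical axis, grouped by cell class) in each of the 9 samples (horizontal axis, grouped by population). Sftpc and Scgb1a1 are the brightest epithelial genes in single samples, Lum, Dcn and Col3a1 are brightest in Tumor-AM 3, and Cd4 and Cd79a are brightest in the 3 Tumor-macrophage samples.

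The cell classes differed in their order over the 3 groups, and epithelial genes had the largest mean sum in both Ctrl-AM and Tumor-AM. Epithelial genes summed to 205, 53.2 and 82.0 FPKM in Ctrl-AM 1, 2 and 3, to 83.2, 31.0 and 71.5 in Tumor-AM and to 19.7, 73.6 and 20.1 in Tumor-macrophage, so that all groups overlapped. Fibroblast genes summed to 4.25, 7.05 and 8.91 FPKM in Ctrl-AM, to 21.6, 13.7 and 93.8 in Tumor-AM and to 11.5, 12.1 and 19.2 in Tumor-macrophage. Each sample of tumor-bearing mice was above each Ctrl-AM sample, and Tumor-AM 3 stood far above the rest. The log2 ratio of the mean fibroblast sums of Tumor-AM and Ctrl-AM was 2.68, and it was 1.39 without Tumor-AM 3. B-cell genes summed to 7.08, 10.8 and 9.01 FPKM in Ctrl-AM, to 3.72, 2.30 and 4.26 in Tumor-AM and to 26.6, 14 and 25 in Tumor-macrophage, so that the 3 groups did not overlap and Tumor-AM was lowest. T-cell and NK-cell genes were at 5.72 to 7.33 FPKM in Ctrl-AM, at 5.82 to 18.2 in Tumor-AM and at 26.3 to 50.1 in Tumor-macrophage. Dendritic-cell genes were at 6.09 to 9.41 FPKM in Ctrl-AM, at 2.67 to 4.15 in Tumor-AM and at 9.89 to 22.1 in Tumor-macrophage, and endothelial genes at 3.67 to 4.46, 1.36 to 3.15 and 4.99 to 7.32 FPKM. Of the neutrophil list, Mpo and Elane summed to at most 0.102 FPKM in every sample, and Ly6g was not analysed. They do not stand for all neutrophil genes, since Cxcr2, Mmp8, S100a8 and S100a9 of an additional list reached 1 FPKM in all samples. Sums over the additional lists kept this order of group means for epithelium, fibroblasts and dendritic cells, but not for endothelium, B cells or T and NK cells. Group means over 9 additional B-cell genes were 42.3 (Ctrl-AM), 45.1 (Tumor-AM) and 81.4 (Tumor-macrophage), and all groups overlapped. Over 15 additional T-cell and NK-cell genes the means were 513, 452 and 59.8. Cd22 made up 57.0% of the former sum and Cd2 93.5% of the latter. All these sums are descriptions of chosen lists and were not tested.

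**Figure D2:**
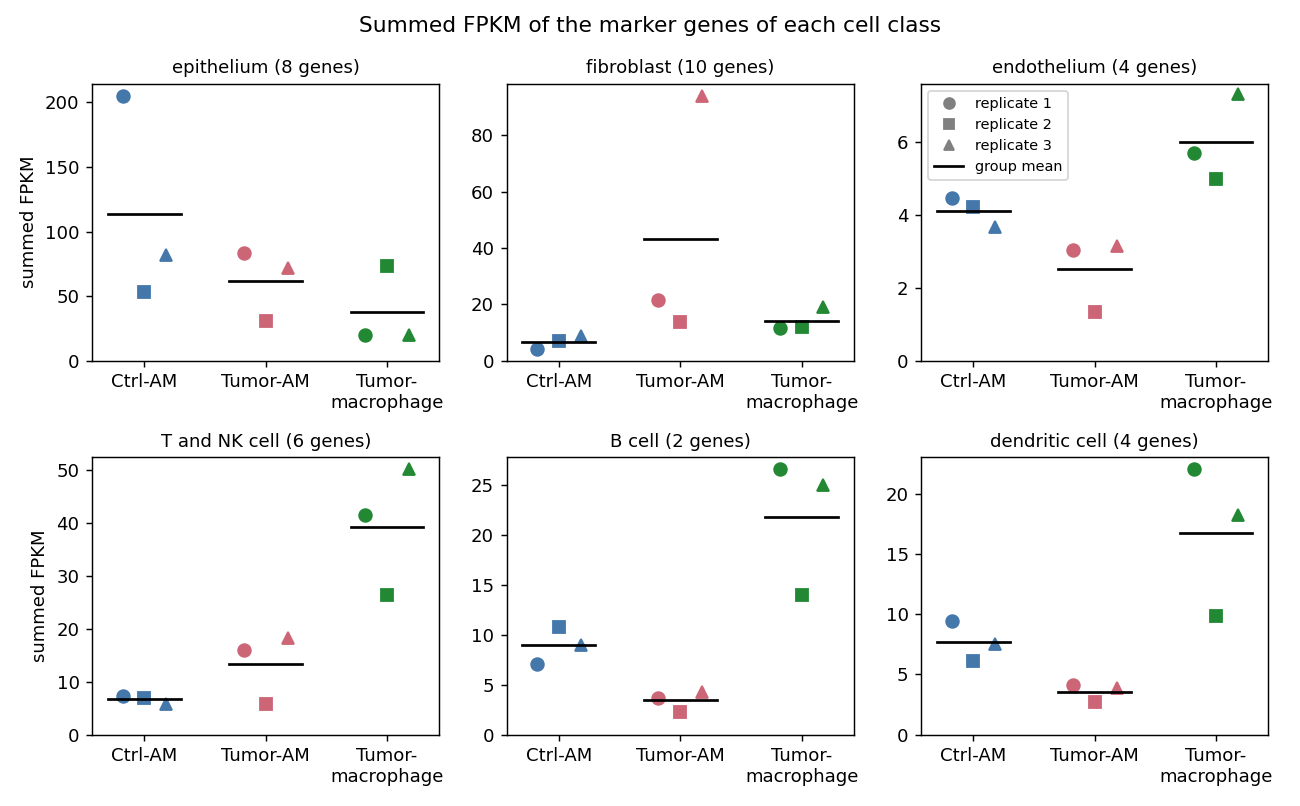
Each panel plots the summed FPKM of the marker genes of 1 cell class (vertical axis, linear and from 0, with its own scale) in the 9 samples by group (horizontal axis). Symbols mark the replicates and bars the group means. The B-cell and dendritic-cell sums of Tumor-AM lie below those of both other groups, while the fibroblast mean of Tumor-AM is set by 1 sample at 93.8 FPKM.

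Tests were made on log2(FPKM + 1) with limma, a linear model fitted to all genes at once, on the 10686 genes that reached 1 FPKM in 3 or more samples. Of the marker genes, 20 passed this filter. They were 5 of the 8 epithelial genes, 4 of 10 fibroblast genes, 1 of 4 endothelial genes, 4 of 6 T-cell and NK-cell genes, both B-cell genes, all 4 dendritic-cell genes and neither neutrophil gene. Between Tumor-AM and Ctrl-AM, 2 of the 20 were higher (Lum and Col3a1) and 2 lower (Cd79a and Cd209a) at an adjusted p under 0.05, beside 7.11% of all genes tested that were higher and 3.18% that were lower. Between Tumor-macrophage and Tumor-AM, 8 were higher (Cd4, Cd209a, Xcr1, Cd79a, Ms4a1, Pecam1, Cd3g and Nkg7) and 2 lower (Ager and Sftpd), beside 24.2% and 24.4% of all genes. Between Tumor-macrophage and Ctrl-AM, 10 were higher (the same 8 with Cd3e and Lum) and 1 lower (Sftpd), beside 27.7% and 27.1% of all genes. The median log2 change of the 20 genes was -0.07 between Tumor-AM and Ctrl-AM, 0.13 between Tumor-macrophage and Tumor-AM and 0.92 between Tumor-macrophage and Ctrl-AM, while the medians of all genes tested were 0.01, 0.00 and -0.01. Cd4 and Xcr1 reached 1 FPKM only in the 3 Tumor-macrophage samples, so that they passed the filter only through the group where they were high. Without them, 6 of 18 genes were higher in Tumor-macrophage than in Tumor-AM, and 8 of 18 when compared with Ctrl-AM. The 3 comparisons share samples, so that they do not support each other. Lack of overlap between 2 groups was common. Of all genes tested, 18.9% lay higher and 13.4% lower in Tumor-AM than in Ctrl-AM without overlap. These shares were 27.55% and 27.8% for Tumor-macrophage against Tumor-AM, and 31.1% and 31.1% against Ctrl-AM. Statements on overlap are thus descriptions of single genes.

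**Figure D3:**
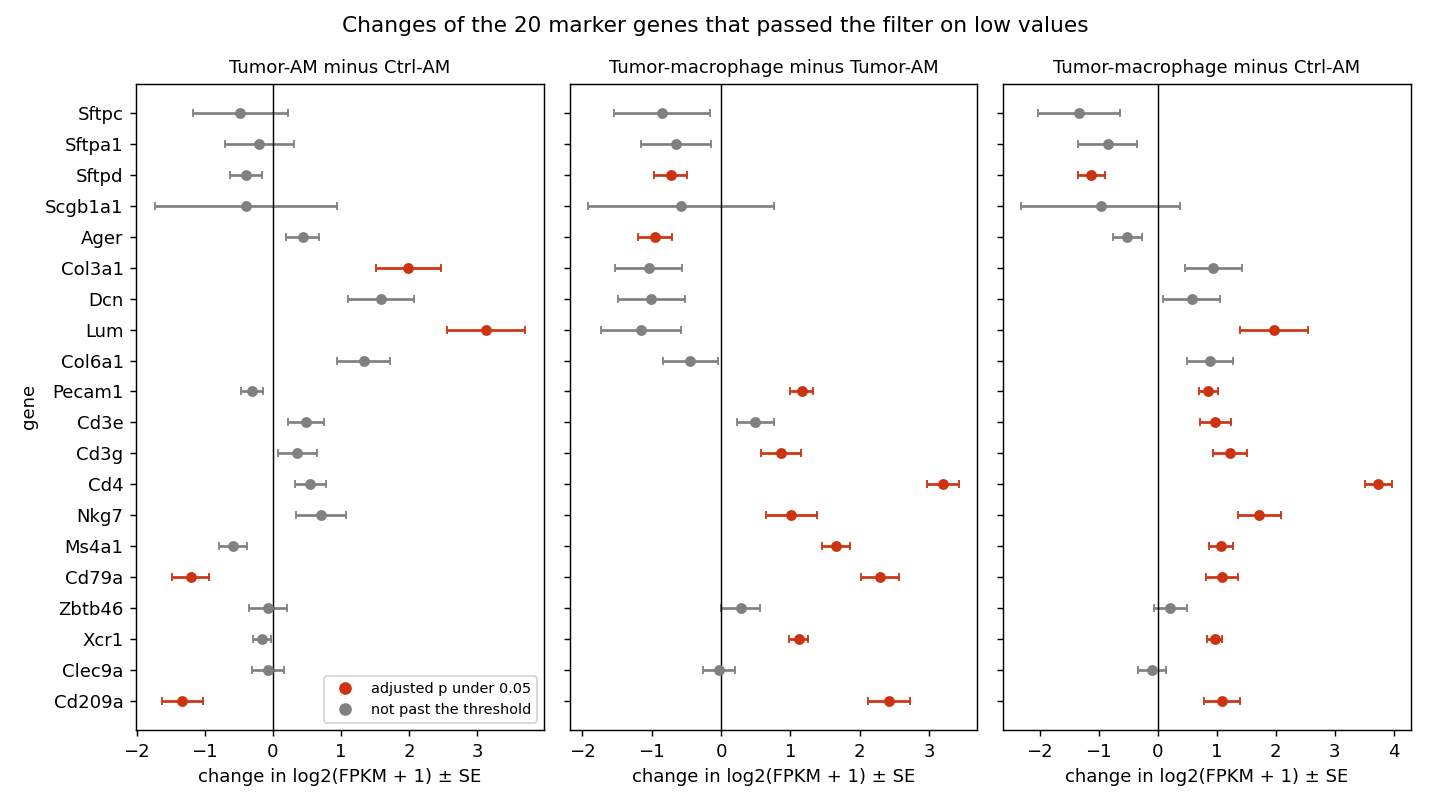
For the 20 marker genes that passed the filter, the change in log2(FPKM + 1) with its standard error (horizontal axis) is plotted by gene (vertical axis) in the 3 comparisons, with genes past an adjusted p of 0.05 in red. Lum has the largest change between the AM groups, at 3.13, and Cd4 between Tumor-macrophage and either AM group, at 3.20 and 3.74, while Scgb1a1 has the widest error, at 1.34.

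The epithelial genes with the highest levels varied from sample to sample. Sftpc, which encodes surfactant protein C and is made by alveolar type II cells, was at 28.6, 40.7 and 70.1 FPKM in Ctrl-AM, at 23.8, 22.2 and 55.1 in Tumor-AM and at 6.19, 64.1 and 10.8 in Tumor-macrophage. Tumor-macrophage 2 was thus within the range of Ctrl-AM, while the other Tumor-macrophage samples were below every AM sample. Sftpc did not pass the threshold in any comparison, with a log2 change of -1.33 ± 0.70 (SE) and a limma adjusted p of 0.13 between Tumor-macrophage and Ctrl-AM. Without Tumor-macrophage 2 this change was -2.27 (limma adjusted p = 0.00179), and that against Tumor-AM was -1.79 (limma adjusted p = 0.00789). Sftpa1, which encodes surfactant protein A, did not reach 5 FPKM and ran from 0.105 to 4.12 FPKM. Like Sftpc, it was high in 1 of the 3 Tumor-macrophage samples, with values of 0.105, 3.88 and 0.374 FPKM there, and Sftpc was 12.2 to 59.0 times Sftpa1 over the 9 samples. Without Tumor-macrophage 2 the change of Sftpa1 was -1.51 against Ctrl-AM (limma adjusted p = 0.00379) and -1.32 against Tumor-AM (limma adjusted p = 0.00934), with -0.85 and -0.65 for all samples (limma adjusted p of 0.176 and 0.311).

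Sftpd and Ager were the epithelial genes that passed the threshold. Sftpd, which encodes surfactant protein D and lies 35.8 kb from Sftpa1 on chromosome 14, was at 1.67, 2.23 and 2.04 FPKM in Ctrl-AM, at 0.696, 1.07 and 2.28 in Tumor-AM and at 0.161, 0.704 and 0.287 in Tumor-macrophage. All Tumor-macrophage samples were below all Ctrl-AM samples, and the change was -1.12 ± 0.24 (SE, limma adjusted p = 0.00223). Against Tumor-AM it was -0.73 ± 0.24 (SE, limma adjusted p = 0.0269), and this call was lost without Tumor-AM 3, Tumor-macrophage 1 or Tumor-macrophage 3 (-0.46, -0.61 and -0.68, limma adjusted p of 0.0877, 0.0893 and 0.0749). In reads, as estimated from the steps between low values, Sftpd rested on 23 to 35 in each Ctrl-AM sample, 9 to 35 in Tumor-AM and 2 to 9 in Tumor-macrophage. Ager, which encodes the receptor RAGE and marks alveolar type I cells, was at 1.54, 2.18 and 2.70 FPKM in Ctrl-AM, at 3.16, 1.94 and 5.04 in Tumor-AM and at 1.07, 0.920 and 1.57 in Tumor-macrophage. Tumor-macrophage did not overlap Tumor-AM, and the log2 change was -0.95 ± 0.25 (SE, limma adjusted p = 0.00878).

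Scgb1a1, the secretory protein of airway club cells, followed no group. It was at 168.5, 5.22 and 2.2 FPKM in Ctrl-AM, at 53.2, 3.99 and 4.49 in Tumor-AM and at 11.7, 3.70 and 6.47 in Tumor-macrophage. Ctrl-AM 1 was thus far above the other 8 samples, followed by Tumor-AM 1 and Tumor-macrophage 1, so that replicate 1 was the highest of each group. Cyp2f2, another club-cell gene, was likewise highest in replicate 1 of each group, at 2.63, 0.643 and 0.279 FPKM. Between the AM groups the change was -0.39 ± 1.34 (SE, limma adjusted p = 0.896), and it was 1.36 without Ctrl-AM 1 (limma adjusted p = 0.48). Scgb1a1 was between 0.0314 and 5.89 times Sftpc over the samples, so that airway and alveolar epithelial RNA were not in a fixed proportion. Scgb3a2, a related secretory gene, was at 1.73 FPKM in Ctrl-AM 1, at 0.216 in Ctrl-AM 3 and listed at 0 in the other 7 samples. Sftpb, of surfactant protein B, was at 0.631 to 0.736 FPKM in Ctrl-AM, at 0.376 to 0.539 in Tumor-AM and at 0.0699 to 0.374 in Tumor-macrophage, in groups that did not overlap but under the filter. Cldn18, a tight junction gene of alveolar epithelium, ran from 0.0634 to 0.668 FPKM.

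Of the 4 fibroblast genes tested, Lum and Col3a1 rose from Ctrl-AM to Tumor-AM, and Dcn and Col6a1 did not pass the threshold. Lum, which encodes the keratan sulfate proteoglycan lumican, (chr10:97565128-97572703, plus strand) was at 0.480, 0.229 and 0.344 FPKM in Ctrl-AM, at 6.62, 4.95 and 35.1 in Tumor-AM and at 2.36, 4.22 and 7.51 in Tumor-macrophage. Every sample of tumor-bearing mice was above every Ctrl-AM sample, and both groups of tumor-bearing mice overlapped each other. Estimated reads were 6 to 11 per Ctrl-AM sample, 116 to 899 in Tumor-AM and 49 to 175 in Tumor-macrophage. Between the AM groups the change was 3.13 ± 0.57 (SE, limma adjusted p = 0.00736), and it stayed past the threshold in 19 of 19 other settings. In Tumor-macrophage the change from Ctrl-AM was 1.98 ± 0.57 (SE, limma adjusted p = 0.0138), which missed the threshold when Tumor-macrophage 3 was left out (1.64, limma adjusted p = 0.0567). The change from Tumor-AM to Tumor-macrophage, -1.15, passed the threshold only without Tumor-AM 2 (-1.65, limma adjusted p = 0.0397). Dcn, which encodes decorin and lies 47.0 kb from Lum on chromosome 10, was at 1.82, 2.25 and 3.49 FPKM in Ctrl-AM, at 6.87, 4.28 and 25.7 in Tumor-AM and at 4.81, 2.92 and 5.01 in Tumor-macrophage. The Tumor-AM samples lay above the Ctrl-AM samples, but the log2 change of 1.58 ± 0.48 (SE) had a limma adjusted p of 0.0666. Without Tumor-AM 2 the change of Dcn was 2.07 (limma adjusted p = 0.0196), and that from Tumor-AM to Tumor-macrophage, -1.0 (limma adjusted p = 0.112), became -1.49 (limma adjusted p = 0.0202).

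The collagens did not all follow this pattern. Col3a1, which encodes the chain of fibrillar type III collagen (chr1:45311538-45349706, plus strand), was at 0.608, 1.28 and 1.51 FPKM in Ctrl-AM, at 4.84, 3.47 and 21.0 in Tumor-AM and at 2.40, 2.96 and 3.87 in Tumor-macrophage. Ctrl-AM was lowest and did not overlap either other group. Between the AM groups the log2 change was 1.99 ± 0.48 (SE, limma adjusted p = 0.0272), and without Tumor-AM 3 it was 1.29 (limma adjusted p = 0.0141). Without Ctrl-AM 1, 2 or 3 it was 1.8, 2.05 and 2.12, and each of these was outside the threshold (limma adjusted p of 0.102, 0.0671 and 0.0664). The call was also lost with only these 2 groups fitted (1.99, limma adjusted p = 0.052) and without the filter on low values (1.99, limma adjusted p = 0.0828). The change from Ctrl-AM to Tumor-macrophage was 0.94 (limma adjusted p = 0.121) and 0.94 without Tumor-AM 3 (limma adjusted p = 0.00375), since that sample widens the shared estimate of the spread. From Tumor-AM to Tumor-macrophage it was -1.04 (limma adjusted p = 0.0982), and -1.49 without Tumor-AM 2 (limma adjusted p = 0.0243).

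Col6a1, of the network-forming type VI collagen, was at 0.0216, 0.0947 and 0.379 FPKM in Ctrl-AM, at 1.51, 0.571 and 5.21 in Tumor-AM and at 0.858, 1.16 and 1.42 in Tumor-macrophage. Estimated reads were 1 to 20 per Ctrl-AM sample, 27 to 269 in Tumor-AM and 36 to 67 in Tumor-macrophage. Neither group of tumor-bearing mice overlapped Ctrl-AM, with log2 changes of 1.33 ± 0.39 (SE, limma adjusted p = 0.0599) in Tumor-AM and 0.89 ± 0.39 (SE, limma adjusted p = 0.0806) in Tumor-macrophage. With a pseudocount of 0.1 the changes of Col6a1 were 3.00 and 2.45 (limma adjusted p of 0.0276 and 0.0149), and with only Ctrl-AM and Tumor-macrophage fitted the second was 0.89 (limma adjusted p = 0.00235). Without Tumor-AM 2 both changes were past the threshold at 1.77 and 0.89 (limma adjusted p of 0.011 and 0.0279), and without Tumor-AM 3 the second was as well (0.89, limma adjusted p = 0.00525).

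Col1a1 and Col1a2, the chains of type I collagen, were below the filter and did not share this order. Col1a1 was at 0.308, 0.906 and 0.525 FPKM in Ctrl-AM, at 0.308, 0 and 1.37 in Tumor-AM and at 0.180, 0.117 and 0.214 in Tumor-macrophage, which rested on 17 to 57, 0 to 84 and 6 to 12 estimated reads per sample. Col1a2 was at 0.396, 0.809 and 0.463 FPKM in Ctrl-AM, at 0.315, 0 and 0.562 in Tumor-AM and at 0.0364, 0 and 0.0811 in Tumor-macrophage. For both genes all Tumor-macrophage samples lay below all Ctrl-AM samples, while Tumor-AM overlapped both. The ratio of Col3a1 to Col1a1, taken from group means, was 1.95 for Ctrl-AM, 17.5 for Tumor-AM and 18.1 for Tumor-macrophage, and that of Lum to Dcn was 0.139, 1.27 and 1.10. Sample by sample, Lum over Dcn was 0.0986 to 0.264 for Ctrl-AM and 0.49 to 1.5 for both groups from tumor-bearing mice. The 3 Ctrl-AM samples thus had the lowest Lum over Dcn, without overlap. These and the other ratios of gene pairs were picked after the values were seen and were not tested. That they separate the groups is thus no support of its own.

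Of the remaining fibroblast genes, Dpt, which encodes the matrix protein dermatopontin, was at 2.66 FPKM in Tumor-AM 3 and at 0.168 to 0.673 FPKM elsewhere. Pdgfra and Pdgfrb, receptors for platelet-derived growth factor, reached 1.5 and 0.449 FPKM in Tumor-AM 3, and Pdgfrb was listed at 0 in Ctrl-AM 1 and in Tumor-macrophage 1 and 2. Mfap5, a microfibril gene of adventitial fibroblasts, ran the other way, from 0.339 to 1.54 FPKM in Ctrl-AM, from 0 to 0.288 in Tumor-AM and from 0 to 0.218 in Tumor-macrophage. Tumor-AM 3 was the highest Tumor-AM sample for 9 of the 10 fibroblast genes and Tumor-AM 2 the lowest for 9 of 10. Tumor-macrophage 3 was the highest Tumor-macrophage sample for 9 of 10, and Ctrl-AM 3 was the highest and Ctrl-AM 1 the lowest Ctrl-AM sample for 7 and 8 of 10, so that replicate 3 led in all 3 groups.

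**Figure D4:**
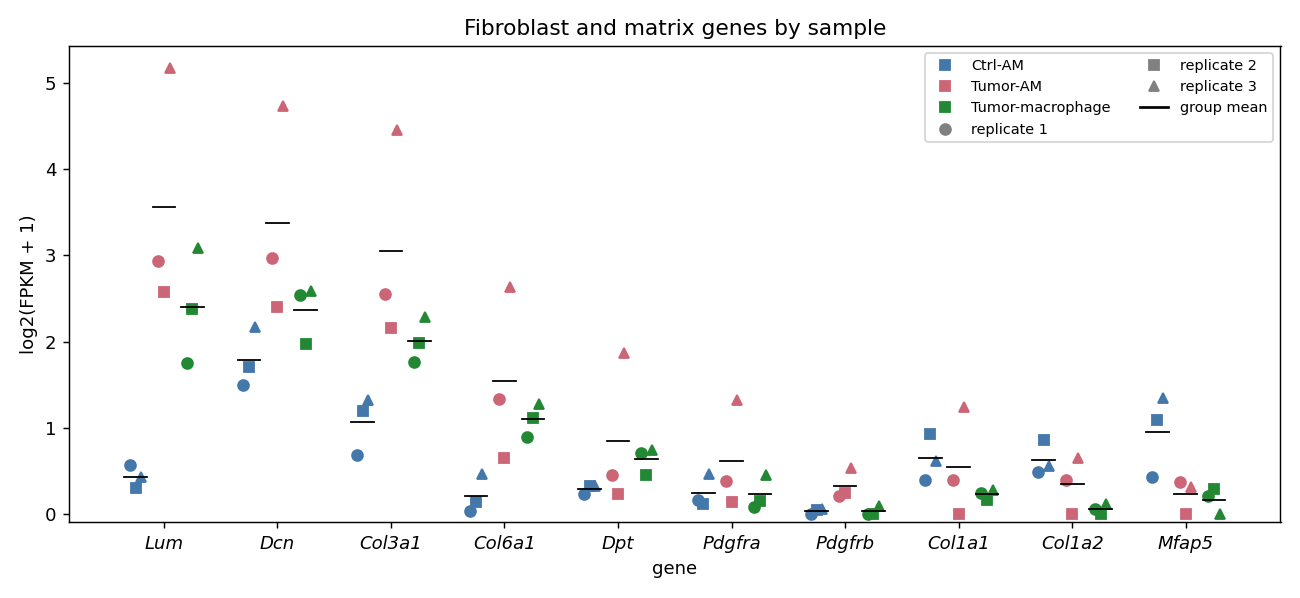
For each of the 10 fibroblast genes (horizontal axis), log2(FPKM + 1) (vertical axis) is plotted for the 9 samples, with color for the group, symbol for the replicate and a bar for the group mean. Lum, Dcn, Col3a1 and Col6a1 lie above Ctrl-AM in all 3 Tumor-AM samples, with Tumor-AM 3 uppermost, whereas Col1a1 and Col1a2 are highest in Ctrl-AM 2 or Tumor-AM 3 and lowest in Tumor-AM 2 or Tumor-macrophage.

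Some promoter sequences are printed for genes on which the contrasts between the groups turn. The RefSeq table for GRCm38.p6, the assembly also called mm10, held promoters for 23 of the 36 genes. Those of Col3a1 (higher in Tumor-AM), Cd209a (lower in Tumor-AM and highest in Tumor-macrophage) and Xcr1 (higher in Tumor-macrophage) are shown as examples whose 250 bases end at the annotated gene start. Other promoters end there too. One is that of Cd3g, also higher in Tumor-macrophage, which holds neither TATAAA nor CCAAT and is not printed. They run 5′ to 3′ on the strand of the gene, in lower case, and capitals mark matches to TATAAA or CCAAT on either strand. They lie at chr1:45311288-45311537 (plus strand), chr8:3748985-3749234 (minus strand) and chr9:123862030-123862279 (minus strand).
Col3a1: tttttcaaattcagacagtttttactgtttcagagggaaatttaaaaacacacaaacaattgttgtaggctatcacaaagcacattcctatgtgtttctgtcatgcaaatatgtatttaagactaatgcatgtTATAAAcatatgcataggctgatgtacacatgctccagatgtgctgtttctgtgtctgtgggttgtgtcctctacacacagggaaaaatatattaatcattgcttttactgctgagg
Cd209a: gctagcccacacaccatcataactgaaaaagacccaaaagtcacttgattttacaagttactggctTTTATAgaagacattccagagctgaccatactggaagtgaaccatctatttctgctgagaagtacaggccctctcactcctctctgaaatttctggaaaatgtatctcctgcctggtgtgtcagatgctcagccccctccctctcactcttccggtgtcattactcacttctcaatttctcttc
Xcr1: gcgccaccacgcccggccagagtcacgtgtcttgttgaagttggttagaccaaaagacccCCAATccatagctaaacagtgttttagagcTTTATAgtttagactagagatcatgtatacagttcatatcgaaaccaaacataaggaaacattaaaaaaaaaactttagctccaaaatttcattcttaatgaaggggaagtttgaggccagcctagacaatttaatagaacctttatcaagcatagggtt
The letters TATAAA stood in all 3 and in 5 of the 23 genes, and in 12.4% of the 32851 promoters of the table within the same 250 bases, while CCAAT stood in Xcr1, in 5 of the 23 genes and in 33.8% of all promoters. TGANTCA, the motif of AP-1, was in 3 of 23 genes and 6.75% of all promoters, and GAGGAA, the core bound by the myeloid and B-cell factor PU.1, in 6 of 23 and 23.3%. Such matches describe letters and not sites. Since the 3 printed promoters were picked, TATAAA in all 3 is no result.

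Both B-cell genes of the list followed the groups closely, which the additional B-cell genes given below did not all do. Cd79a, which encodes the signaling chain Ig-alpha of the B-cell receptor, was at 5.67, 9.12 and 7.08 FPKM in Ctrl-AM, at 2.78, 1.57 and 3.59 in Tumor-AM and at 22.1, 10.9 and 18.3 in Tumor-macrophage. The 3 groups did not overlap, with Tumor-AM lowest and Tumor-macrophage highest. It fell from Ctrl-AM to Tumor-AM by a change of -1.20 ± 0.27 (SE, limma adjusted p = 0.0214), and this call was lost without Ctrl-AM 2, Ctrl-AM 3 or Tumor-AM 2 (-1.05, -1.21 and -0.97, limma adjusted p of 0.0776, 0.0682 and 0.0608). Tumor-macrophage was higher than Tumor-AM by 2.30 ± 0.27 (SE, limma adjusted p = 4.8e-05) and higher than Ctrl-AM by 1.09 ± 0.27 (SE, limma adjusted p = 0.00625). Ms4a1, which encodes the B-cell surface protein CD20, was at 1.41, 1.66 and 1.93 FPKM in Ctrl-AM, at 0.935, 0.733 and 0.671 in Tumor-AM and at 4.52, 3.12 and 6.67 in Tumor-macrophage. Its groups kept the same order without overlap. Tumor-macrophage was higher than Tumor-AM by 1.65 ± 0.20 (SE, limma adjusted p = 5.93e-05) and than Ctrl-AM by 1.07 ± 0.20 (SE, limma adjusted p = 0.00109). From Ctrl-AM to Tumor-AM the change was -0.58 ± 0.20 (SE, limma adjusted p = 0.103), and it was past the threshold without Tumor-macrophage 2 or 3, which only changes the shared spread (-0.58 both times, limma adjusted p of 0.042 and 0.0466), with only these 2 groups fitted (-0.58, limma adjusted p = 0.0303) and with a pseudocount of 0.1 (-1.01, limma adjusted p = 0.0489). Cd79a was 2.14 to 5.5 times Ms4a1 over the 9 samples, a narrow range next to that of Scgb1a1 over Sftpc. In the GENCODE annotation, 4.48% of the 75-base stretches of Cd79a transcripts also occur in another gene, Gm32220.

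T-cell and NK-cell genes were highest in Tumor-macrophage. Cd4, the co-receptor of helper T cells, which some monocytes, macrophages and dendritic cells can also carry, was at 0.141, 0 and 0 FPKM in Ctrl-AM, at 0.479, 0.525 and 0.581 in Tumor-AM and at 17.8, 8.06 and 15.1 in Tumor-macrophage. The 3 groups did not overlap, and estimated reads were 0 to 5, 16 to 23 and 266 to 571 per sample. Cd4 passed the filter only through Tumor-macrophage, so that it could be tested only by being high there. The level of Tumor-macrophage exceeded that of Tumor-AM by 3.20 ± 0.23 (SE, limma adjusted p = 9.31e-07) and that of Ctrl-AM by 3.74 ± 0.23 (SE, limma adjusted p = 2.12e-07). Tumor-AM was higher than Ctrl-AM in each sample by a log2 change of 0.55 that did not pass the threshold (limma adjusted p = 0.173). It passed in 3 other settings, namely without Tumor-macrophage 2 (0.55, limma adjusted p = 0.0229), with only these 2 groups fitted (0.55, limma adjusted p = 0.0294) and with a pseudocount of 0.1 (2.23, limma adjusted p = 0.00839).

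Cd3g and Cd3e, which lie 18.3 kb apart on chromosome 9 and encode chains of the T-cell receptor complex, moved less. Cd3g was at 2.1, 1.23 and 1.05 FPKM in Ctrl-AM, at 1.70, 1.37 and 3.67 in Tumor-AM and at 5.29, 3.01 and 6.19 in Tumor-macrophage. Tumor-AM 3 exceeded Tumor-macrophage 2, while Tumor-macrophage and Ctrl-AM did not overlap. The change to Tumor-macrophage was 1.23 ± 0.29 from Ctrl-AM (SE, limma adjusted p = 0.00441) and 0.87 ± 0.29 from Tumor-AM (SE, limma adjusted p = 0.03), the second of which was lost without Tumor-AM 1, Tumor-AM 2, Tumor-macrophage 1 or Tumor-macrophage 3 (0.67 to 0.79, limma adjusted p of 0.085 to 0.109). Cd3e was at 0.265, 0.813 and 0.465 FPKM in Ctrl-AM, at 1.55, 0.519 and 1.37 in Tumor-AM and at 1.90, 1.14 and 3.13 in Tumor-macrophage. From Ctrl-AM to Tumor-macrophage it rose by 0.98 ± 0.27 (SE, limma adjusted p = 0.00996), and its change from Tumor-AM, 0.49 (limma adjusted p = 0.153), was called when Tumor-macrophage 2 was left out (0.73, limma adjusted p = 0.046). The ratio of Cd4 to Cd3e from group means was 0.0913 for Ctrl-AM, 0.461 for Tumor-AM and 6.63 for Tumor-macrophage, with 4.83 to 9.34 in the single Tumor-macrophage samples and at most 1.01 in the others.

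Nkg7, a granule gene of NK and cytotoxic T cells, was at 4.71, 4.6 and 4.01 FPKM in Ctrl-AM, at 11.6, 3.30 and 11.9 in Tumor-AM and at 15.7, 13.4 and 22.8 in Tumor-macrophage. Tumor-AM was split, with 1 sample below all Ctrl-AM samples and the others above them, and Tumor-macrophage was above all AM samples. Tumor-macrophage was higher than Ctrl-AM by 1.72 ± 0.37 (SE, limma adjusted p = 0.00229). From Tumor-AM the change of 1.01 ± 0.37 (SE, limma adjusted p = 0.0411) held in 9 of 19 other settings, and it was 0.49 without Tumor-AM 2 (limma adjusted p = 0.0596), 1.06 without Tumor-macrophage 1 (limma adjusted p = 0.0716), 0.81 without Tumor-macrophage 3 (limma adjusted p = 0.138) and 1.01 without any single Ctrl-AM sample (limma adjusted p of 0.0551 to 0.0556). Without Tumor-AM 2 the change of Nkg7 between the AM groups was 1.23 (limma adjusted p = 0.00463), compared with 0.71 for all samples (limma adjusted p = 0.268). Cd8a, the co-receptor of cytotoxic T cells, was under the filter, at 0.074 to 0.113 FPKM in Ctrl-AM, at 0.110 to 0.444 in Tumor-AM and at 0.615 to 1.57 in Tumor-macrophage. Ncr1, the NK-cell receptor NKp46, reached 1.34 FPKM in Tumor-macrophage 3, at 21 estimated reads, and was at most 0.284 FPKM in the other 8 samples.

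The dendritic-cell genes did not move as a unit. Cd209a, a lectin of the DC-SIGN family found on monocyte-derived and conventional dendritic cells, was at 7.21, 4.25 and 4.25 FPKM in Ctrl-AM, at 1.29, 1.00 and 2.12 in Tumor-AM and at 16.9, 6.92 and 14.3 in Tumor-macrophage. Tumor-AM was below both other groups, and Tumor-macrophage 2 was below Ctrl-AM 1. It fell from Ctrl-AM to Tumor-AM by a change of -1.33 ± 0.30 (SE, limma adjusted p = 0.0213), a call that was lost without Ctrl-AM 1, Tumor-AM 1 or Tumor-AM 2 (-1.11, -1.29 and -1.19, limma adjusted p of 0.0861, 0.0607 and 0.0649). Tumor-macrophage was higher than Tumor-AM by 2.41 ± 0.30 (SE, limma adjusted p = 6.87e-05) and higher than Ctrl-AM by 1.09 ± 0.30 (SE, limma adjusted p = 0.011). Xcr1, the chemokine receptor of cross-presenting (type 1) dendritic cells, was at 0.652, 0.454 and 0.454 FPKM in Ctrl-AM, at 0.550, 0.244 and 0.309 in Tumor-AM and at 2.09, 1.92 and 1.87 in Tumor-macrophage. The AM groups overlapped, and Xcr1 passed the filter only through Tumor-macrophage, as Cd4 did. The change to Tumor-macrophage was 1.12 ± 0.13 from Tumor-AM (SE, limma adjusted p = 4.55e-05) and 0.96 ± 0.13 from Ctrl-AM (SE, limma adjusted p = 0.000115).

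Clec9a, which marks the same type of dendritic cell as Xcr1, did not follow it. It was at 1.37, 1.08 and 1.59 FPKM in Ctrl-AM, at 1.29, 1.25 and 1.13 in Tumor-AM and at 2.31, 0.595 and 0.960 in Tumor-macrophage, with all groups overlapping and log2 changes of -0.10 to -0.03 (limma adjusted p of 0.74 to 0.927). In the GENCODE annotation, 3.23% of the 75-base stretches of Clec9a transcripts also occur in the neighbouring gene Clec1b. Zbtb46, a transcription factor of conventional dendritic cells and endothelium, ran from 0.177 to 1.25 FPKM and passed the threshold in no comparison.

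Among the endothelial genes, Pecam1 moved apart from the others. Pecam1, which encodes CD31, an adhesion protein of endothelium that platelets and many leukocytes also carry, was at 2.23, 2.36 and 2.12 FPKM in Ctrl-AM, at 1.93, 1.23 and 1.74 in Tumor-AM and at 3.99, 4.54 and 6.28 in Tumor-macrophage. The 3 groups did not overlap. Tumor-macrophage was higher than Tumor-AM by 1.16 ± 0.16 (SE, limma adjusted p = 0.000152) and than Ctrl-AM by 0.86 ± 0.16 (SE, limma adjusted p = 0.00111). Cdh5, Kdr and Tek, which encode VE-cadherin, the VEGF receptor 2 and the angiopoietin receptor and are more specific to endothelium, did not pass the filter. Cdh5 was at 0.245 to 0.431 FPKM in Ctrl-AM, at 0.0422 to 0.251 in Tumor-AM and at 0.0695 to 0.261 in Tumor-macrophage. Kdr ran from 0.0456 to 0.993 FPKM over all samples, and Tek from 0.707 to 1.29 in Ctrl-AM, from 0.0367 to 0.521 in Tumor-AM and from 0 to 0.455 in Tumor-macrophage. Without Pecam1, the log2 ratio of the endothelial sums of Tumor-macrophage and Tumor-AM was 0.27, compared with 1.25 with it.

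Whether a gene followed group or sample was described by the share of the squared deviations of log2(FPKM + 1) that lay between the 3 groups. The median of this share was 70.7% over all genes tested and 62.5% over the 35 marker genes above 0, of which 10 were above the median of all genes. Over the 20 marker genes that passed the same filter as those genes, it was 65.7%, with 8 above the median of all genes. Cd4 and Xcr1 passed that filter only through Tumor-macrophage, and without them it was 63.6% over 18 genes. It was highest for Cd4 at 97.4% and Xcr1 at 96.3%, followed by Ms4a1, Pecam1, Cd79a and Cd209a at 87.4% to 90.1%. Scgb1a1 at 4.95% and Clec9a at 2.35% were lowest. Class medians were 89.2% for the 2 B-cell genes, 68.9% for T-cell and NK-cell genes, 59.0% for fibroblast genes, 58.7% for endothelial genes, 49.4% for dendritic-cell genes and 31.5% for epithelial genes. Over the additional lists the median was 58.2% for 9 B-cell genes and 45.1% for 15 T-cell and NK-cell genes. Within groups, Tumor-AM 2 was the lowest Tumor-AM sample for 4 of 4 endothelial genes and 5 of 6 T-cell and NK-cell genes. Tumor-macrophage 2 was the lowest Tumor-macrophage sample for both B-cell genes, 5 of 6 T-cell and NK-cell genes, 3 of 4 endothelial genes and 3 of 4 dendritic-cell genes, although it had the highest Sftpc and Sftpa1 of its group. Estimated depth was 11200000 reads in Tumor-AM 2, between the other Tumor-AM samples at 10300000 and 12200000, and 10200000 in Tumor-macrophage 2, between 9900000 and 11100000.

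**Figure D5:**
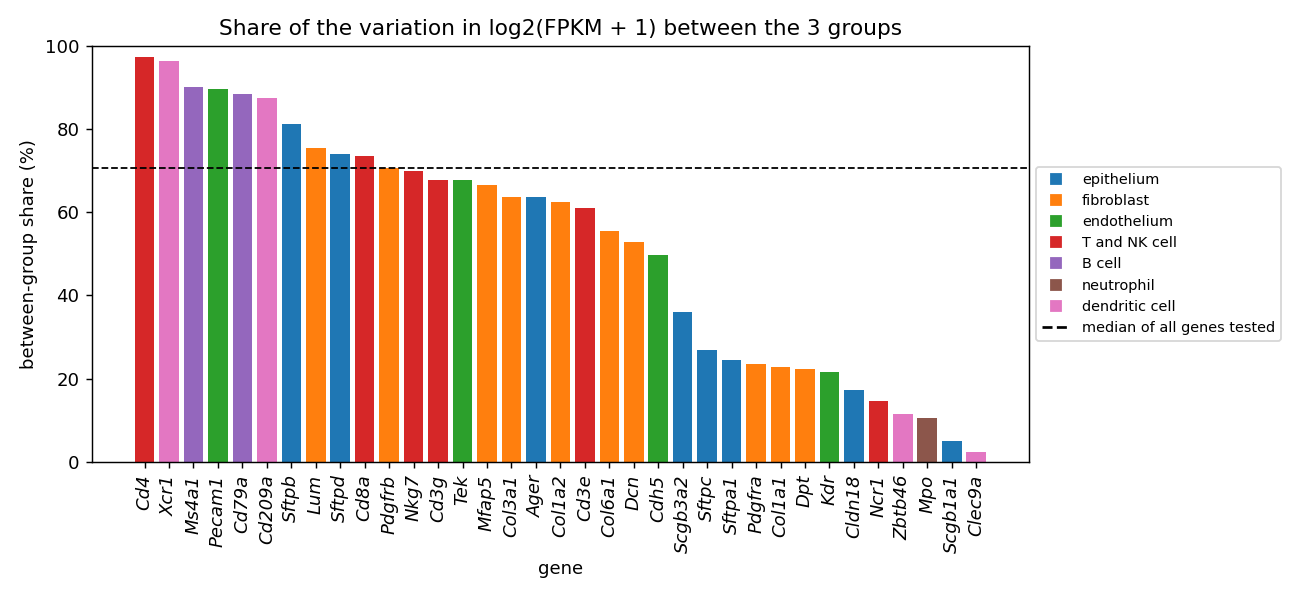
Bars give, for each of the 35 marker genes above 0 (horizontal axis), the share of the variation in log2(FPKM + 1) that lies between the 3 groups (vertical axis, in percent), colored by cell class, and the dashed line is the median of all genes tested, 70.7%. Cd4, Xcr1, Ms4a1, Pecam1, Cd79a and Cd209a stand at the left, and Sftpc, Sftpa1 and Scgb1a1 stand on the right, below 30%.

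Additional markers of the same classes moved in both directions. As a scale for their counts, 7.11% of the 10686 genes in the fit rose past the threshold from Ctrl-AM to Tumor-AM, and 3.18% fell. From Tumor-AM to Tumor-macrophage, 24.2% rose and 24.4% fell. A count of 0 in a short list between the AM groups, or of several in the second comparison, is thus no result on a cell class. Of 18 additional epithelial genes, 9 were tested, and from Tumor-AM to Tumor-macrophage Pdpn and Etv5 rose and Krt19, Cdh1, Epcam and Napsa fell. Krt19, a keratin gene, was at 438 to 861 FPKM in AMs and at 0.15 to 0.756 in Tumor-macrophage, far above Sftpc in AMs. Between the AM groups Hopx and Pdpn rose and Krt19 and Epcam fell. Epcam, an adhesion protein of epithelium, was at 43.8, 53.9 and 67.8 FPKM in Ctrl-AM, at 18.8, 4.52 and 8.27 in Tumor-AM and at 0.436, 0 and 0.951 in Tumor-macrophage, in groups without overlap (-2.46 ± 0.40 from Ctrl-AM to Tumor-AM, SE, limma adjusted p = 0.00435). Of 18 additional fibroblast genes, 7 were tested and 0 passed the threshold between the AM groups (limma, with 4 at an unadjusted p under 0.05), although Tumor-AM 3 was the highest Tumor-AM sample for 15 of the 18. From Tumor-AM to Tumor-macrophage the fibril-associated collagen Col14a1 rose and Fstl1 fell. Serpinf1, which encodes the secreted protein PEDF, was at 0.633, 0.666 and 0.722 FPKM in Ctrl-AM, at 2.15, 1.86 and 11.9 in Tumor-AM and at 3.28, 4.76 and 6.54 in Tumor-macrophage, with the 3 Ctrl-AM samples lowest and Tumor-AM 3 highest, as for Lum. Inmt, a methyltransferase gene strong in lung fibroblasts, was at 6.69, 7.97 and 10.2 FPKM in Ctrl-AM, at 5.73, 1.57 and 6.18 in Tumor-AM and at 3.42, 2.79 and 4.62 in Tumor-macrophage, with the Ctrl-AM samples highest. Of 7 mural-cell genes, 3 were tested, of which Cspg4 rose between the AM groups, and Cspg4 and Acta2 fell from Tumor-AM to Tumor-macrophage.

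Of 16 additional endothelial genes, 10 were tested, and from Tumor-AM to Tumor-macrophage Eng rose and Flt1, Vwf and Calcrl fell, while 0 passed the threshold between the AM groups (limma, with 0 at an unadjusted p under 0.05). Vwf, the von Willebrand factor of endothelium and platelets, was at 3.37 to 4.02 FPKM in AMs and at 0.548 to 1.49 in Tumor-macrophage, so that it and Pecam1 ran in opposite directions. Tumor-AM 2 was the lowest Tumor-AM sample for 15 of the 16, and Tumor-macrophage 2 the lowest Tumor-macrophage sample for 14. Of 15 additional T-cell and NK-cell genes, 8 were tested. Between the AM groups Il7r rose (0.82 ± 0.15, SE, limma adjusted p = 0.00736) and 7 did not pass the threshold. From Tumor-AM to Tumor-macrophage Il7r, Cd3d, Cd247 and Lck rose and Cd2 fell from 399 to 471 FPKM to 9.53 to 26 FPKM. Cd3d, a further chain of the T-cell receptor complex, was at 1.08, 0.924 and 1.63 FPKM in Tumor-AM and at 3.28, 1.95 and 4.64 in Tumor-macrophage (0.92 ± 0.26, SE, limma adjusted p = 0.0139), a change near that of Cd3g. Of 9 additional B-cell genes in the data, 7 were tested, and in the same comparison those that rose included Cd79b, Fcmr, Mzb1 and Fcrla, and Cd22 fell, while 0 were past the threshold between the AM groups (limma, with 1 at an unadjusted p under 0.05). Cd79b, the partner of Cd79a in the B-cell receptor, was at 2.55, 4.18 and 2.96 FPKM in Ctrl-AM, at 2.01, 0.564 and 1.62 in Tumor-AM and at 22.9, 14.7 and 17.7 in Tumor-macrophage, which repeated the order of Cd79a and Ms4a1. Of 11 additional neutrophil genes, 6 were tested, of which Retnlg and S100a9 fell from Ctrl-AM to Tumor-AM and Mmp8, S100a8 and Cxcr2 fell from Tumor-AM to Tumor-macrophage. S100a8, an inflammatory protein of neutrophils and monocytes, was at 50.9 to 144 FPKM over the 9 samples, while the granule genes Mpo and Elane were at or near 0. Of 10 additional dendritic-cell genes, 5 were tested, and from Tumor-AM to Tumor-macrophage Clec10a (which passed the filter only through Tumor-macrophage), Batf3 and Ccr7 rose and Wdfy4 fell, while 0 were past the threshold between the AM groups (limma, with 2 at an unadjusted p under 0.05). Whether any additional list departs from the shares of the whole fit was not tested. Whether foreign cells contribute to any of these changes was not tested either.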

How the data were processed

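Total RNA of sorted cells was turned into full-length cDNA and sequenced. The authors aligned reads to mm10 with TopHat2 (2.1.1) and Bowtie2, and deposited FPKM per gene (Cuffdiff 2.2.1), 1 file per sample. FPKM divides by transcript length and mapped reads, so a few very abundant RNAs can shift all other genes. The annotation and the handling of reads shared between genes were not given in the sources used here. FPKM summed to 635560 to 785745 per sample. Depth and reads per gene were estimated from the steps of low values (a tolerance of 0.05 read, at least 5 samples), which resolved 22 marker genes, and cover counting error only.

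Genes that reached 1 FPKM in 3 or more of the 9 samples were tested on log2(FPKM + 1) with limma 3.58.1 in R 4.3.3, with a trend in the prior variance and all 9 samples sharing 1 spread. The pseudocount of 1 understates changes of low genes. Tests were two-sided, with p-values adjusted over all 10686 genes (Benjamini-Hochberg) at a threshold of 0.05. The fit was tested on simulated data. SE is the standard error of a log2 change. Values in every sample are given for marker genes that reached 5 FPKM in a sample or passed the threshold. Genes of the additional lists are named if they had the 2 highest means of a list or belong to a count of 5 or fewer. Others, such as Cyp2f2, Epcam, Vwf, Cd3d and Jchain, were singled out after their values were seen, and a gene of an additional list is not reported here. The members and lists were chosen with earlier results of these data known. Positions come from GENCODE vM21 and promoters from RefSeq. Alternatives covered pseudocount, filter, scaling, prior variance, samples and the replicate number. The labels do not say what a shared replicate number stands for, and it was not used as a block.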

Additional observations from a re-analysis of the deposited data

How the results depend on the processing

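All 25 changes past the threshold among the marker genes kept their direction under every alternative in which they were tested, and 14 of them also stayed past the threshold in each. Counts of marker genes past the threshold moved as follows. Between Tumor-AM and Ctrl-AM, the number higher (2) was 4 with a pseudocount of 0.1 or with the replicate block, 1 without a filter or with a filter of 5 FPKM, and 1 to 5 on leaving out 1 sample, and the number lower (2) was 0 without a filter and 0 to 3 on leaving out 1 sample. Between Tumor-macrophage and Tumor-AM, the number higher (8) was 4 with the filter of 5 FPKM, and the number lower (2) was 0 with that filter or with a 2-fold change required, 1 with only the 2 groups compared, 4 with the replicate block and 1 to 5 on leaving out 1 sample. Between Tumor-macrophage and Ctrl-AM, the number higher (10) was 5 with the filter of 5 FPKM, and the number lower (1) was 0 with it, 5 without a filter, 2 after rescaling to TPM, with only the 2 groups compared or with the replicate block, and 1 to 3 on leaving out 1 sample. Single calls were lost also where a count stayed the same. Without a filter these were Col3a1, Cd79a and Cd209a between the AM groups, and Cd3g, Nkg7 and Sftpd between Tumor-macrophage and Tumor-AM. With only the 2 groups compared they were Col3a1 in the first comparison and Nkg7 and Sftpd in the second. The filters change which genes are tested, and the cause of the other moves was not tested. All genes past the threshold numbered 1100, 5191 and 5860 in the 3 comparisons, and 208, 1827 and 2150 with a 2-fold change required, and leaving out 1 sample gave 538 to 1254 in the first. The labels do not say whether same-numbered Tumor-AM and Tumor-macrophage samples come from 1 mouse. Over all genes, the deviations of same-numbered samples correlated at -0.0615 to 0.159, and not above 0.1 in each pair. Among the pairs of a Tumor-AM with a Tumor-macrophage sample, each sample correlated best with its own number (0.026, 0.0964 and 0.109). Pairs with control mice reached similar values, with 0.159 for Ctrl-AM 2 and Tumor-AM 2 and 0.0953 for Ctrl-AM 2 and Tumor-macrophage 1. These values come from the data and not the design, and whether samples shared a mouse was not tested. With the replicate block, Dcn and Col6a1 were past the threshold between the AM groups (limma adjusted p of 0.0264 and 0.0328), Col3a1 and Dcn between Tumor-macrophage and Tumor-AM (0.0421 and 0.0403), and Col6a1 and Ager between Tumor-macrophage and Ctrl-AM (0.0376 and 0.0393).

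A pseudocount of 0.1 enlarged by over 1.5 times the changes of Sftpd (-1.59) and Xcr1 (2.19) from Tumor-AM to Tumor-macrophage, and of Cd4 (6.60), Lum (3.30), Sftpd (-2.26), Cd3e (1.8) and Xcr1 (1.75) from Ctrl-AM to Tumor-macrophage. Rescaling to TPM shifted the median of all genes by -0.105, -0.0834 and -0.215 in the 3 comparisons. Of the 35 changes not past the threshold, 9 changed sign on leaving out 1 sample. In the order Tumor-AM against Ctrl-AM, Tumor-macrophage against Tumor-AM and Tumor-macrophage against Ctrl-AM, the range was -1.52 to 1.36, -1.17 to 0.55 and -2.08 to 0.78 for Scgb1a1, and -0.15 to 0.00, -0.33 to 0.20 and -0.40 to 0.13 for Clec9a. It was -0.57 to 0.03 for Sftpa1 and -0.31 to 0.21 for Zbtb46 in the first, and -0.89 to 0.10 for Col6a1 in the second. Among log2 ratios of summed FPKM, that of epithelium between Tumor-macrophage and Tumor-AM (-0.71) was -1.83 with medians in place of means. Without the most abundant gene, the ratio of endothelium was 0.27 (1.25 with it), of T and NK cells 2.33 (1.56) and of dendritic cells 0.95 (2.23) in the same comparison, and of dendritic cells -0.23 (-1.11) between the AM groups. The ratio of epithelium ran from -1.64 (without Tumor-macrophage 2) to -0.4 on leaving out 1 sample, and between the AM groups (-0.87) from -1.21 to -0.13 (without Ctrl-AM 1). On leaving out 1 sample, an alternative added after seeing the data, the fibroblast ratio ran from 1.39 to 3.1 between the AM groups and from -2.02 to -0.31 between Tumor-macrophage and Tumor-AM. Depth limits genes under about 1 FPKM, where a sample held few reads of a gene.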

Other observations

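Markers of further cells were present in some samples. Mast-cell genes were found in Tumor-macrophage. Cma1, which encodes mast-cell chymase, was at 0, 0.658 and 0.164 FPKM in Ctrl-AM, listed at 0 in the 3 Tumor-AM samples and at 1.86, 9.88 and 6.18 FPKM in Tumor-macrophage, where it was higher than in Tumor-AM by 2.60 ± 0.40 (SE, limma adjusted p = 0.000282). Tpsb2, a mast-cell tryptase, was listed at 0 in Tumor-macrophage 1 and was at 20.4 and 4.01 FPKM in Tumor-macrophage 2 and 3. Cpa3, mast-cell carboxypeptidase, and Kit, the receptor for stem cell factor, were higher as well, by 2.21 ± 0.30 (SE, limma adjusted p = 0.000136) and 1.02 ± 0.17 (SE, limma adjusted p = 0.000545). Cma1, Cpa3 and Kit were the only tested genes of a list of 9 eosinophil, mast-cell and basophil genes. They passed the filter only through Tumor-macrophage, so that they could be tested only by being high there. Neither their p-values nor their count is thus support for a difference, and 24.2% of all genes tested were higher in this comparison. Tumor-macrophage 2, the sample with the lowest lymphocyte genes of its group, was the highest for Cma1, Tpsb2 and Cpa3.

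Jchain, which joins antibody chains in plasma cells, was at 25, 0.139 and 33.5 FPKM in Tumor-macrophage 1, 2 and 3 and at 0 to 3.09 FPKM in the AM samples. Its change to Tumor-macrophage did not pass the threshold, at 2.47 ± 1.10 from Tumor-AM (SE, limma adjusted p = 0.0887) and 2.44 ± 1.10 from Ctrl-AM (SE, limma adjusted p = 0.0834). Pf4, on the platelet list but also known from macrophages, was at 290, 583 and 527 FPKM in Tumor-macrophage and at 3.94 to 8.26 FPKM in AMs, where it was the only tested gene of 9 and rose from Tumor-AM by 5.86 ± 0.26 (SE, limma adjusted p = 2.47e-08), while Ppbp, a more restricted platelet gene, reached 5.12 FPKM in 1 sample. Hemoglobin genes were low, with Hba-a1 at 0 to 4.06 FPKM in lungs that were not perfused, and of the 6 erythroid genes in the data 2 were tested and 0 passed the threshold in any comparison (limma, with 0 at an unadjusted p under 0.05). Of the 6 mesothelial genes none passed the filter, and Msln reached 0.64 FPKM in Ctrl-AM 1.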
